A study of Sus scrofa with 6 samples.

Results

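Mediator is the large assembly that carries signals from DNA-bound transcription factors to RNA polymerase II, and it was examined here through its 33 genes in the deposited table of porcine oocytes, of 29861 genes in all. The members were every gene named MED followed by a number, with or without a final L, together with the kinases CDK8 and CDK19 and their partner cyclin C (CCNC). Expression (FPKM, fragment numbers corrected for transcript length and, by a scaling not stated, for each sample's total) was given for all of them in 6 samples. These were 2 samples each of control oocytes, of oocytes that spent the first 24 h of culture at an elevated temperature (heat stress), and of oocytes that received nicotinamide mononucleotide (NMN), a precursor of NAD+, in the medium during the same heat (heat stress+NMN). All groups were oocytes from abattoir ovaries matured in culture and pooled within a sample, no strain or age was given, and the labels put them at the GV (germinal vesicle) stage and 24 h, while the methods speak of metaphase II oocytes. Neither source says that the 2 samples of a group came from separate collections, so the P-values measure only the spread between these samples, which may be technical.

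The core of Mediator is built from a head, which contacts the polymerase, a middle, and a tail, which receives many of the activators, and these are held together by the long backbone subunit MED14. A further, detachable module carries CDK8 or its paralog CDK19 with cyclin C, MED12 and MED13, and its docking to the core competes with binding of the polymerase. Oocytes stop transcription as they near the end of growth, so transcripts in a maturing oocyte are largely a stored pool, which is degraded and translated on schedule. By common assignment 11 members were counted in the head, 9 in the middle, 1 as the backbone, 5 in the tail and 7 in the CDK module, including the paralogs MED12L and MED13L. MED27 to MED30 are placed differently by different schemes and were counted in the head here.

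The FPKM of all genes summed to between 163929 and 290136 per sample, of which mitochondrial genes held 61.7 to 74.7%. From the steps between low values, the depth relative to the control 1 sample was 0.735 in heat stress 1, the shallowest, and 1.15 in control 2, and absolute depth is unknown. Of 14 oocyte markers, 12 had a mean of at least 1 FPKM, and ZP2, GDF9, BMP15 and MOS were present in every sample, whereas DDX4 and FIGLA were low. Their summed FPKM was 3379.5 to 3602 in control, 3288 to 3290.0 in heat stress and 2838 to 3083 in heat stress+NMN, and BMP15, at 1606 to 1940.5, made up much of it. Other markers, picked after their values were seen, differed more, with GDF9 at 732 and 777 FPKM in control, 477 and 532 in heat stress and 435 and 353 in heat stress+NMN, and ZAR1, a maternal-effect gene, at 17.3 and 23.8, 11.8 and 13.8, and 4.3 and 2.84. The controls were also highest and the NMN samples lowest for NPM2, from 1.42 and 1.92 FPKM to 0.361 and 0.17, and for ZP3, from 24.7 and 26.3 FPKM to 11.9 and 8.38. Not all markers fell. BMP15 was at 1606 and 1646 FPKM in control, 1861 and 1940.5 in heat stress and 1819.6 and 1751 in heat stress+NMN. BTG4 stayed between 42.9 and 55.3 FPKM without such an order. The part of these marker differences in the Mediator values was not tested. Of the 21 cumulus and granulosa cell markers in the table, 1 (INHBA) had a mean of at least 1 FPKM, 20 were under 0.5 FPKM and 5 (INHA, AMH, AREG, KRT8 and KRT18) were at 0 in all samples, and without INHBA they summed to 1.02 to 1.53, 1.17 to 1.57 and 1.31 to 1.67 FPKM in the 3 groups. With INHBA these sums were 14.2 to 17.9, 8.01 to 11.3 and 5.67 to 11.9 FPKM. None of the 5 blood cell markers in the table reached 1 FPKM.

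Mediator was expressed very unevenly. MED28, a head-associated subunit found in animals, was listed at 101 and 106 FPKM in control, 120.3 and 103 in heat stress and 111 and 109 in heat stress+NMN. This single gene made up 48.2 to 52.4% of the summed FPKM of the 33 members in a sample. With MED17 (a core head subunit), MED7 (the middle subunit of the hinge with MED21), MED20 (a head subunit that pairs with MED18), MED4 (a middle subunit) and MED1 (the docking site of nuclear receptors), 6 members made up 86.0 to 88.4%. The head as a whole held 73.7 to 75.9%, the middle 16.7 to 20.0%, the tail 2.34 to 3.68%, the backbone 1.44 to 2.6% and the CDK module 0.985 to 1.73%. Most of the head's share was that of MED28, whose placement differs between schemes.

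By mean over the 6 samples, 5 members reached 10 FPKM, 11 lay between 1 and 10, 15 between 0.1 and 1, and 2 (MED12 and CDK19) were under 0.1 FPKM. Of all genes in the table, 3.11% reached 10 FPKM and 61.0% were under 0.1. Ordered by mean level, 5 of the 32 pairs of neighbours had the same order in each of the 6 samples, MED28 above MED17, MED20 above MED4, MED4 above MED1, MED1 above MED14 and MED16 above MED12. In 3 of these, MED28 and MED17, MED20 and MED4, and MED4 and MED1, the ranges over all samples did not meet either, and the order of the other neighbours changed between samples. How reads that match related genes were counted was not given, so the levels of CDK8 and its close paralog CDK19 are uncertain, and so may be those of the more diverged pairs MED12 and MED12L, and MED13 and MED13L. PTOV1, which shares a domain with MED25, was at 1.69 and 1.49 FPKM in control, 1.12 and 1.04 in heat stress and 1.49 and 1.14 in heat stress+NMN, with both heat-stressed samples lowest. In addition, 11 members, among them MED1, MED7 and MED30, share their listed locus with another gene, and the library kit is not one that marks strand.

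**Figure D1:**
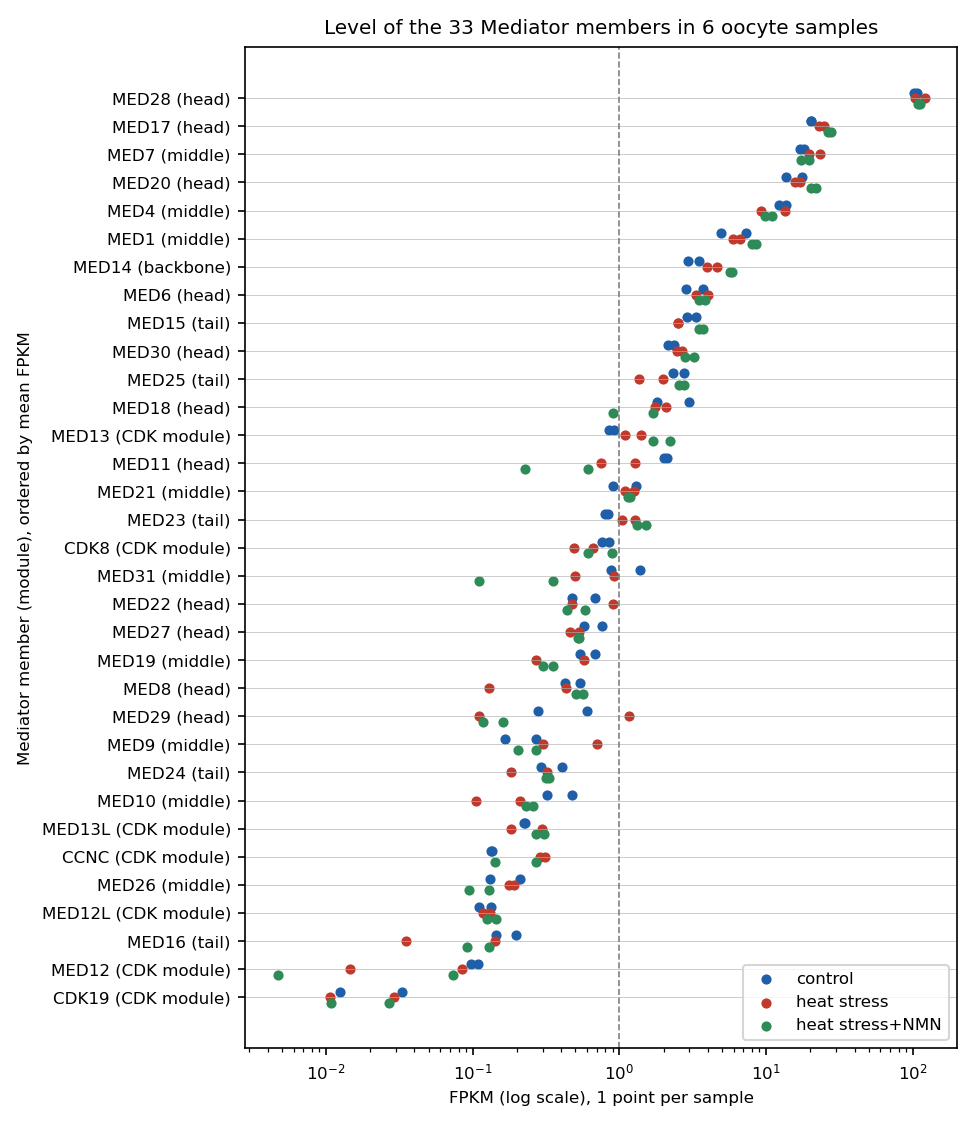
FPKM of each of the 33 members (rows, with their module, ordered by mean) in each of the 6 samples on a log axis, coloured by group, with a dashed line at 1 FPKM. MED28 stands apart at over 100 FPKM in all samples, and in the CDK module MED13 is the member with a mean of at least 1 FPKM.

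Apart from MED13, the members of the CDK module all had means under 1 FPKM. CDK8 was the highest of these at 0.709 FPKM, and the paralogs MED13L and MED12L were at 0.251 and 0.127. CDK8, the kinase of the module, had 0.759 and 0.843 FPKM in control, 0.490 and 0.664 in heat stress and 0.612 and 0.883 in heat stress+NMN. The heat-stressed samples were below both controls, and the NMN samples overlapped both groups. CCNC, its cyclin, had 0.136 and 0.133 FPKM in control, 0.289 and 0.312 in heat stress and 0.142 and 0.268 in heat stress+NMN. Here the heat-stressed samples were above all the others. MED12, which activates the kinase, had 0.0975 and 0.108 FPKM in control, 0.0850 and 0.0146 in heat stress and 0.00469 and 0.0737 in heat stress+NMN, and CDK19 ranged from 0.0107 to 0.0327 FPKM over the 6 samples. MED13, the subunit that ties the module to the core, was the member of the module with the highest level, and its values are given below.

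Testing was done with limma on log2(FPKM + 1) in 1 fit over the 6 samples and the 4713 genes with a mean of at least 1 FPKM, with Benjamini-Hochberg adjustment over all of them, and 16 of the 33 members passed this minimum (7 of the head, 4 of the middle, the backbone, 3 of the tail and 1 of the CDK module). Fold changes below are on this scale, which understates the change of low genes. A call means an unadjusted P under 0.05, the level used in the study, unless adjustment is named. In a pool of oocytes, fewer oocytes that hold a transcript and less of it per oocyte cannot be told apart. The 3 comparisons reuse the same samples, so their values are set side by side and are not independent of each other.

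With heat stress against control, 1 of the 16 tested members was called higher (MED14) and 2 lower (MED11 and MED25), where 12.7% and 10.1% of all tested genes were called. None passed an adjusted P of 0.05 with limma, as was the case for 0% of all genes, and the adjusted P of the members ran from 0.176 to 0.883. The median log2 fold change of the members was 0.08 beside 0.05 over all genes, with 11 members above 0 and 5 below. The groups did not overlap in 6 members that were higher with heat (MED7, MED13, MED14, MED17, MED23 and MED30) and in 3 that were lower (MED11, MED15 and MED25), beside 31.6% and 23.2% of all tested genes.

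Between heat stress+NMN and heat stress, 4 members were called higher (MED13, MED14, MED15 and MED25) and 1 lower (MED11), where 7.15% and 6.45% of all tested genes were called. Again none passed adjustment (0% of all genes), with adjusted P of 0.328 to 0.994 from limma. The median was 0.16 for members and 0.08 for all genes, with 9 members above 0 and 7 below. The groups did not overlap in 9 members that were higher and in 2 that were lower (MED11 and MED18), beside 35.9% and 17.6% of all tested genes.

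Between heat stress+NMN and control, 6 members were called higher (MED13, MED14, MED17, MED20, MED23 and MED30) and 1 lower (MED11), where 25.6% and 15.7% of all tested genes were called. Here 4 members (MED11, MED13, MED14 and MED17) passed an adjusted P of 0.05 with limma, 25% of the 16 beside 21.5% of all tested genes. With any 1 of the control or heat stress+NMN samples left out, the adjusted P from limma was 0.0713 to 0.114 for MED11, 0.0928 to 0.16 for MED13, 0.0525 to 0.128 for MED14 and 0.105 to 0.221 for MED17, and that of MED17 was also 0.0709 and 0.0702 without heat stress replicates 1 and 2. The median was 0.15 for members and 0.11 for all genes, with 13 members above 0 and 3 below. The groups did not overlap in 9 members that were higher and in 3 that were lower (MED4, MED11 and MED18), beside 43.5% and 26.4% of all tested genes. By module, 3 of the 7 tested head members were called higher and 1 lower, none of the 4 middle members was called in either direction, and 1 of the 3 tail members was called higher.

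**Figure D2:**
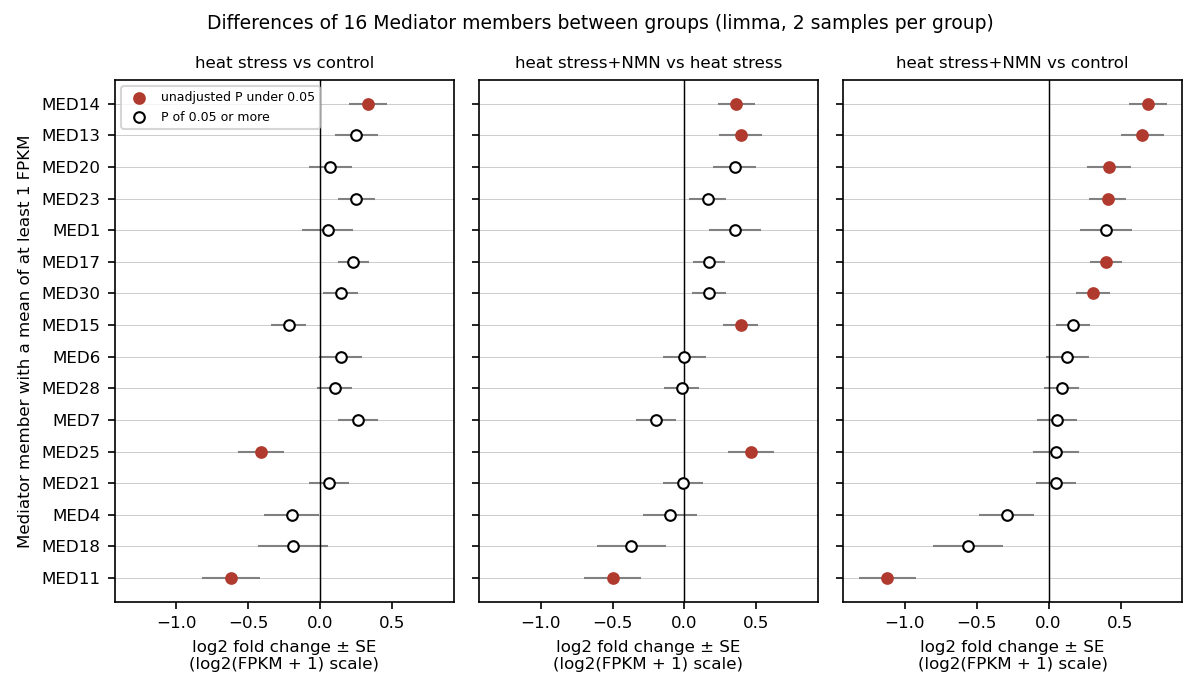
log2 fold change with its standard error from limma for the 16 tested members in each comparison, ordered by the difference between heat stress+NMN and control, with filled points at an unadjusted P under 0.05. Members lie on both sides of 0 in every comparison, with MED25 at -0.41, 0.46 and 0.05 from left to right.

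MED25, a tail subunit that receives activators through a dedicated domain and that was also measured by RT-PCR in the study, lies at chr6:54834303-54849539 on the forward strand of Sscrofa11.1, with 19 annotated exons. Its FPKM was 2.76 and 2.30 in control, 1.36 and 1.97 in heat stress and 2.55 and 2.76 in heat stress+NMN. Both heat-stressed samples were below all the others, and the control and NMN samples overlapped. Its log2 fold change was -0.41 ± 0.16 (SE) for heat stress against control and the adjusted P from limma was 0.213. Between heat stress+NMN and heat stress it was 0.46 ± 0.16 with an adjusted P of 0.350 from limma, and between heat stress+NMN and control it was 0.05 ± 0.16 with an adjusted P of 0.820. The unadjusted P of the first and second of these were 0.0434 and 0.0285 with limma, and an exact permutation test of 2 against 2 samples cannot go below 0.333.

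Both calls of MED25 were lost in some fits without 1 sample. In these fits a group left with 1 sample takes its spread from the other groups, as if it varied like them, and leaving out a sample of the third group changes only the degrees of freedom and the spread. With heat stress against control, limma's unadjusted P was 0.194 without heat stress replicate 1, where MED25 was lowest, 0.173 and 0.0546 without control replicates 1 and 2, and 0.0732 and 0.0739 without heat stress+NMN replicates 1 and 2, at fold changes of -0.25, -0.32, -0.51, -0.41 and -0.41. Between heat stress+NMN and heat stress it was 0.128 without heat stress replicate 1 and 0.0724 and 0.117 without heat stress+NMN replicates 1 and 2, at 0.30, 0.51 and 0.42. Heat stress replicate 1 was also the shallowest sample, and the part of depth in its value was not tested.

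MED25 stood at or near the end of the members' order where the heat-stressed samples entered the comparison. Among the 16 tested members its log2 fold change was the second lowest with heat stress against control, above MED11 alone, and the highest with heat stress+NMN against heat stress, where MED15 and MED13 (0.39), MED14 (0.36), and MED20 and MED1 (0.35) lay within 1 SE of it. The median of the other 15 members was 0.10, 0.16 and 0.17 in the 3 comparisons, in the order given above, so that MED25 lay 0.51 below, 0.30 above and 0.12 below it. After centring each member's log2(FPKM + 1) on its mean over the 6 samples, MED25 lay 0.32 and 0.09 above the median of the others in the controls, 0.42 and 0.09 below it in the heat-stressed samples and 0.03 and 0.08 above it in the NMN samples. None of the other 15 lay below MED25 in heat stress 1, and 3 did in heat stress 2, against 14 and 10 in the controls. The distance from the other members was thus largest in heat stress 1, and in heat stress 2 it was of the size seen in control 2. As a share of the summed FPKM of the other members without MED28, MED25 made up 2.78 and 2.37% in control, 1.26 and 1.96% in heat stress and 2.32 and 2.42% in heat stress+NMN. These are descriptions, and no test set MED25 against the other members. MED25 was also among the genes that the paper picked, by its account at random, to check its RNA-seq. The genes it was picked from were not named, and the part of that choice in its rank was not tested.

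The member whose profile lay nearest to that of MED25 was MED15, a tail subunit that activators such as SREBP bind, with a root mean square difference of 0.124 on the centred log2 scale over the 6 samples. It was followed by MED1 at 0.222 and MED20 at 0.245, and MED11 was farthest at 0.532. MED15 (chr14:50703010-50759310, reverse strand) had 3.34 and 2.88 FPKM in control, 2.51 and 2.51 in heat stress and 3.51 and 3.73 in heat stress+NMN. As for MED25, both heat-stressed samples were below all the others, and the NMN samples were above both controls. Its log2 fold change was -0.22 ± 0.12 for heat stress against control, which was not called, and 0.39 ± 0.12 with heat stress+NMN against heat stress, where limma gave an unadjusted P of 0.0167 and an adjusted P of 0.328. That unadjusted P was 0.0539 to 0.0939 when either replicate of heat stress or of heat stress+NMN was left out.

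The third tested tail subunit, MED23, through which kinase signals reach the complex by way of ELK1, had a different order. It was at 0.836 and 0.802 FPKM in control, 1.04 and 1.28 in heat stress and 1.51 and 1.31 in heat stress+NMN. Its NMN samples were above the heat-stressed samples, and these above the controls. Its log2 fold change was 0.25 ± 0.13 with heat stress against control, 0.16 ± 0.13 with heat stress+NMN against heat stress and 0.41 ± 0.13 with heat stress+NMN against control, where limma's adjusted P was 0.0708. The call against control was lost without control replicates 1 and 2 (unadjusted P 0.0577 and 0.0734 from limma) and without heat stress+NMN replicate 1 (0.104). The tested tail members thus had values on both sides of 0 with heat stress against control.

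**Figure D3:**
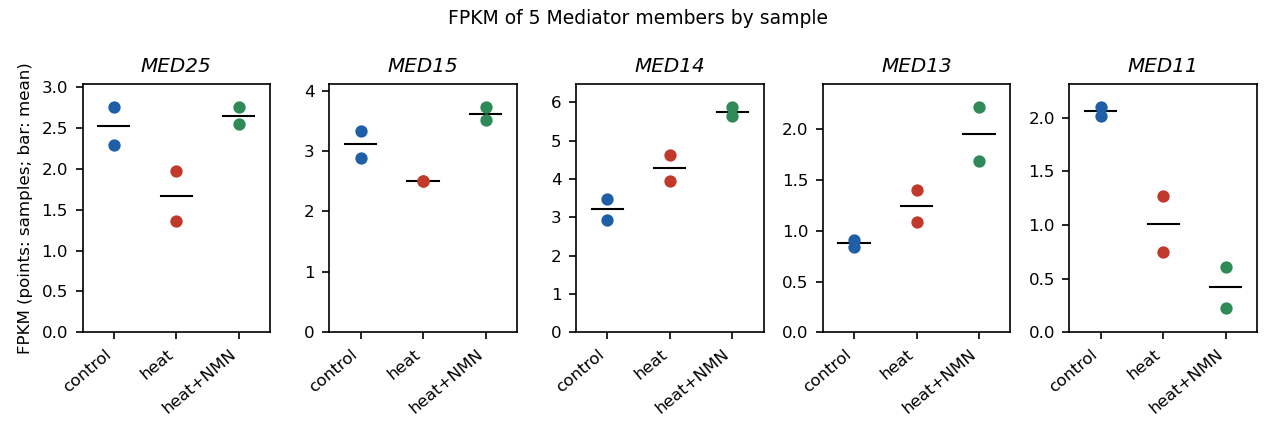
FPKM of MED25, MED15, MED14, MED13 and MED11 in each sample (points) with the group mean (bar), each on its own linear axis from 0. MED25 and MED15 are lowest in the heat-stressed samples, MED14 and MED13 are highest in the NMN samples, and MED11 is lowest there.

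Among the members called higher with heat stress+NMN was MED14, the backbone (chrX:36354057-36424837, reverse strand). Its FPKM was 3.48 and 2.94 in control, 3.96 and 4.62 in heat stress and 5.64 and 5.88 in heat stress+NMN. The 3 groups did not overlap, with control lowest and NMN highest. The backbone's log2 fold change was 0.33 ± 0.13 for heat stress against control, 0.36 ± 0.13 with heat stress+NMN against heat stress and 0.69 ± 0.13 with heat stress+NMN against control, with adjusted P of 0.217, 0.354 and 0.0273 from limma. With heat stress against control the unadjusted P was 0.170 without control replicate 2, 0.190 without heat stress replicate 2, and 0.0856 and 0.0870 without heat stress+NMN replicates 1 and 2. For heat stress+NMN against heat stress it was 0.154 without heat stress replicate 1 and 0.0995 and 0.141 without heat stress+NMN replicates 1 and 2, while the call against control was kept at unadjusted P without any 1 sample.

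MED13 (chr12:36333741-36430740, forward strand) had 0.911 and 0.845 FPKM in control, 1.09 and 1.40 in heat stress and 1.69 and 2.22 in heat stress+NMN. As for MED14, the groups did not overlap and the NMN samples were highest. MED13 rose by 0.65 ± 0.15 on the log2 scale with heat stress+NMN against control, with an adjusted P of 0.0379 from limma, and its log2 fold change against heat stress was 0.39 ± 0.15 with an adjusted P of 0.357. The unadjusted P of the latter was 0.0416, and 0.0651 and 0.0659 without control replicates 1 and 2, 0.174 without heat stress replicate 1 and 0.206 without heat stress+NMN replicate 2. Between heat stress+NMN and control the values of MED13 and MED14 differed by less than their SE, and with a pseudocount of 0.1 FPKM MED13 was the higher, at 1.06 against 0.83. MED13 was the member of the CDK module called, while its kinase and cyclin were under the minimum for the test.

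MED17 (chr9:26192206-26214177, forward strand) was at 20.2 and 20.1 FPKM in control, 22.9 and 24.7 in heat stress and 27.6 and 26.2 in heat stress+NMN. The groups did not overlap, in the same order as for MED14. MED17 rose by 0.40 ± 0.11 on the log2 scale with heat stress+NMN against control, and limma gave an adjusted P of 0.0490. Without heat stress+NMN replicate 1 its unadjusted P was 0.0692.

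MED20 (chr7:37062555-37074150, reverse strand) was at 17.5 and 13.7 FPKM in control, 17.0 and 15.6 in heat stress and 20.2 and 21.9 in heat stress+NMN. Control and heat-stressed samples overlapped, and the NMN samples were above all of them. The difference between heat stress+NMN and control was 0.42 ± 0.15 on the log2 scale, with an adjusted P of 0.0913 from limma, and its unadjusted P was 0.128 without control replicate 2 and 0.0721 and 0.137 without heat stress+NMN replicates 1 and 2.

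MED30 (chr4:21198740-21215634, reverse strand) was at 2.34 and 2.14 FPKM in control, 2.65 and 2.47 in heat stress and 2.79 and 3.24 in heat stress+NMN. Its groups did not overlap either. Heat stress+NMN differed from control by 0.31 ± 0.12 on the log2 scale, with an adjusted P of 0.115 from limma. The unadjusted P, 0.0460 with all samples, was 0.0639 to 0.233 when any 1 of the 6 samples was left out. MED1 was not called in any comparison, although both its NMN samples (8.02 and 8.54 FPKM) were above the controls (7.29 and 4.95) and the heat-stressed samples (5.95 and 6.58).

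MED11, a small head subunit that binds MED22 (chr12:52150535-52152366, reverse strand), went the other way. Its FPKM was 2.10 and 2.02 in control, 0.750 and 1.27 in heat stress and 0.610 and 0.228 in heat stress+NMN. The groups did not overlap, with control highest and NMN lowest. Its log2 fold change was -0.62 ± 0.20 for heat stress against control, -0.50 ± 0.20 with heat stress+NMN against heat stress and -1.12 ± 0.20 with heat stress+NMN against control, and limma's adjusted P were 0.176, 0.360 and 0.0246. The last call was kept without any 1 sample at unadjusted P of 0.00174 to 0.0132. With heat stress against control the unadjusted P was 0.0862 and 0.0752 without control replicates 1 and 2 and 0.108 without heat stress replicate 1, and with heat stress+NMN against heat stress it was 0.0803 and 0.0823 without control replicates 1 and 2, 0.211 without heat stress replicate 2 and 0.220 without heat stress+NMN replicate 2.

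MED18, the partner of MED20, was at 1.81 and 2.96 FPKM in control, 2.08 and 1.76 in heat stress and 1.68 and 0.904 in heat stress+NMN. The NMN samples were below all the others, while those of MED20 were above all the others. Its log2 fold change with heat stress+NMN against control was -0.56 ± 0.24 and was not called. The other tested members stayed without a call in all comparisons. MED28 and the head subunit MED6 were at log2 fold changes of 0.09 and 0.13 with heat stress+NMN against control, MED7 and MED21 at 0.06 and 0.05, and MED4 at -0.29.

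The 15 members between 0.1 and 1 FPKM were read from a second limma fit with a minimum mean of 0.1 FPKM (11651 genes). With heat stress against control 2 of the 15 were called, where 16.0% of all genes in that fit were. These were CCNC, at 0.20 ± 0.07, and MED10, a middle subunit, at -0.27 ± 0.09 on the log2 scale, with adjusted P of 0.301 and 0.273. For heat stress+NMN against heat stress none of the 15 was called (9.96% of all genes), and with heat stress+NMN against control 1 was (27.8%). This was MED31, a conserved middle subunit, at -0.79 ± 0.20 with an adjusted P of 0.0895 from limma. MED31 was at 1.39 and 0.869 FPKM in control, 0.499 and 0.917 in heat stress and 0.353 and 0.110 in heat stress+NMN. Its NMN samples were below all the others. Some values at this level rested on 1 sample, as for MED29, which was at 1.17 FPKM in heat stress 1 and 0.111 in heat stress 2. MED31 and MED29 are also among the members that share their listed locus with other genes. MED12 and CDK19 were tested in neither fit.

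The neighbouring machinery was read from lists of RNA polymerase II subunits, general transcription factors, and pause release and elongation factors. Of 12 polymerase subunits 6 were tested, and 2 were called lower with heat stress against control, 1 higher with heat stress+NMN against heat stress, and 1 higher and 2 lower with heat stress+NMN against control, with medians of -0.34, 0.06 and -0.37. The shares of all tested genes called higher and lower in these comparisons were 12.7% and 10.1%, 7.15% and 6.45%, and 25.6% and 15.7%. The lists, like the 16 tested members, hold few tested genes to be read against these shares. POLR2J, a small subunit, was at -0.80 ± 0.15 on the log2 scale with heat stress against control and with heat stress+NMN against control. Its adjusted P from limma were 0.111 and 0.0260. POLR2A, the catalytic subunit, differed by 0.57 ± 0.21 between heat stress+NMN and heat stress, with an adjusted P of 0.354. Of 34 general transcription factors 17 were tested, with 1 called higher and 2 lower, then 0 and 1, then 1 and 1, in the same order of comparisons, and medians of 0.10, 0.03 and 0.10. GTF2E1, a TFIIE subunit, was higher by 0.52 ± 0.14 and TAF7, a TFIID subunit, was at -0.46 ± 0.12 with heat stress+NMN against control, at adjusted P of 0.0492 and 0.0493 from limma. TAF7 was at -0.35 ± 0.12 with heat stress against control (adjusted P 0.19 from limma). GTF2E1 was at 67.8 and 68.6 FPKM in heat stress beside 60.3 and 48.3 in control.

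Of 24 pause release and elongation factors 13 were tested, with 3 called higher and 2 lower with heat stress against control, 0 and 1 with heat stress+NMN against heat stress, and 2 and 2 with heat stress+NMN against control. Their medians were 0.00, 0.10 and 0.01. MEPCE, the methylase that caps the 7SK RNA, was at 12.1 and 14 FPKM in control, 9.37 and 7.92 in heat stress and 3.20 and 3.59 in heat stress+NMN. Its groups did not overlap. It was at -0.55 ± 0.14, -1.13 ± 0.14 and -1.68 ± 0.14 on the log2 scale in the 3 comparisons, with adjusted P of 0.137, 0.195 and 0.0197 from limma. CCNT1, the cyclin of the elongation kinase, rose by 0.56 ± 0.12 with heat stress+NMN against control (adjusted P 0.0347 from limma). CCNT1 was also called higher with heat stress against control.

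Over all tested genes, the median difference against control fell from low to high transcript G+C. All 33 members matched the RefSeq annotation of Sscrofa11.1, on 14 chromosomes, with 6 of them on chromosome 12. MED25 had the highest transcript G+C of the 33, 67.0% against a range from 35.2% and a median of 48.5%, and lay above 98.4% of the tested genes. Over the 4454 tested genes with an annotated transcript, the median log2 fold change with heat stress against control went from 0.24 in the lowest G+C quartile through 0.11 and -0.03 to -0.21 in the highest, and with heat stress+NMN against control from 0.34 through 0.19 and 0.03 to -0.17. The 3 tested members in the highest quartile were MED11, MED15 and MED25, which were also the 3 tested members whose heat-stressed samples lay below both controls, and the 6 members called higher with heat stress+NMN against control had 37.8 to 52.4% G+C.

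Between heat stress+NMN and heat stress the quartile medians were 0.11, 0.09, 0.07 and 0.02, while in the highest quartile MED25 and MED15 were at 0.46 and 0.39 and MED11 was at -0.50. By transcript length, the medians with heat stress+NMN against control went from -0.20 in the shortest quartile through 0.06 and 0.21 to 0.33 in the longest. The longest transcript of MED11, 949 nt, was the shortest among the members, and MED14 and MED13 were in the longest quartile with 6964 and 12239 nt. MED30, called higher, was in the shortest quartile with 1506 nt, at 0.31 beside that quartile's median of -0.20. The part of G+C and length in the members' values was not tested.

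**Figure D4:**
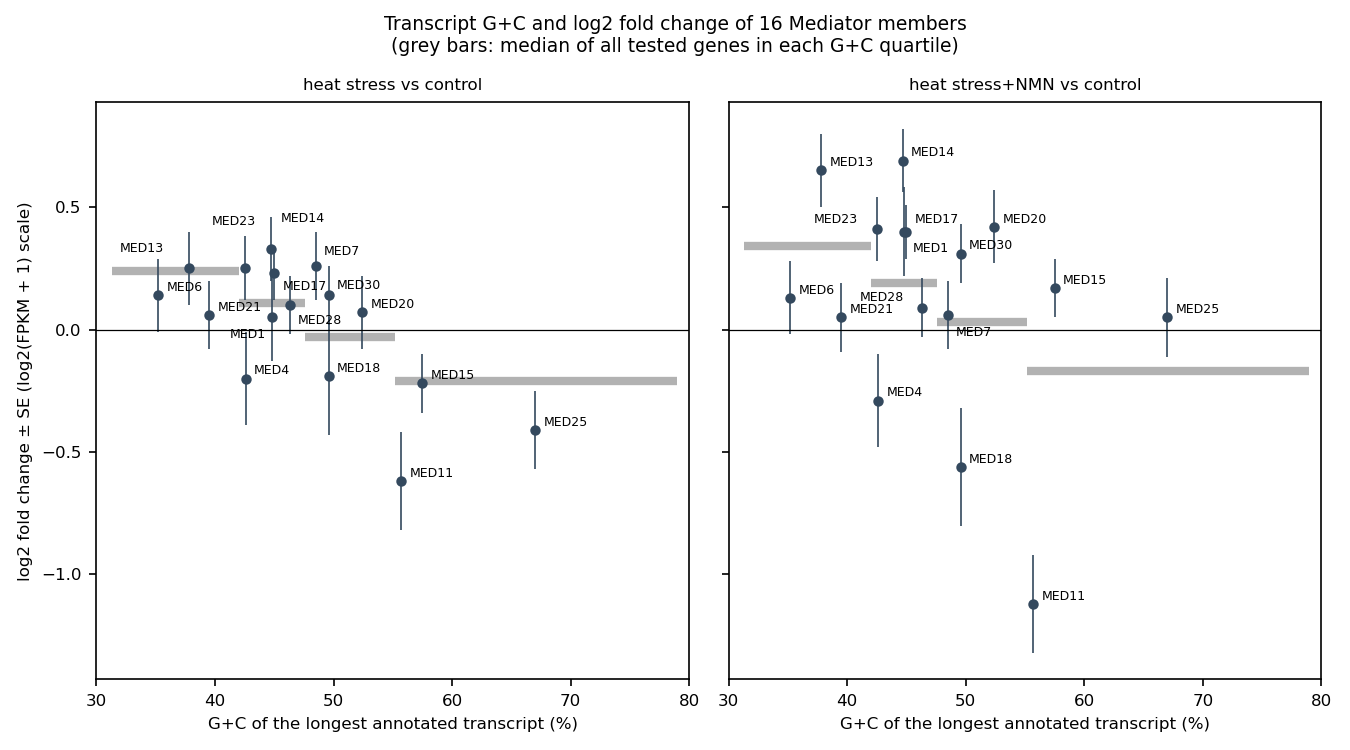
log2 fold change with its standard error of the 16 tested members against the G+C content of their longest annotated transcript, for heat stress and for heat stress+NMN against control, with grey bars at the median of all tested genes in each G+C quartile. MED25, MED15 and MED11 lie at the G+C-rich end, where the median of all genes is below 0 in both panels.

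The promoters of MED25 and of 3 of the 6 members called higher with heat stress+NMN against control are given here. They are shown because the members differ there in short sequence matches. Matches were looked for on both strands in windows of 300 bases (250 before the annotated gene start and 50 from it). Sequences are from the RefSeq Sscrofa11.1 genome, 5′ to 3′ on the strand of the gene. MED25 is chr6:54834053-54834352 (forward), MED14 chrX:36424788-36425087 (reverse), MED20 chr7:37074101-37074400 (reverse) and MED17 chr9:26191956-26192255 (forward). Capitals mark every match to the motifs listed after them, on either strand.
MED25: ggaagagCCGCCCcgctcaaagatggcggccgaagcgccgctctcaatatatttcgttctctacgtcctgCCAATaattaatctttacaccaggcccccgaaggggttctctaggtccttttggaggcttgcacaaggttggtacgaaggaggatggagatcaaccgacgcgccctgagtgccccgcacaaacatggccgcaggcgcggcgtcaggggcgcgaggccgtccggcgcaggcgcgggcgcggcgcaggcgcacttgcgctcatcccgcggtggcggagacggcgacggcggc
MED14: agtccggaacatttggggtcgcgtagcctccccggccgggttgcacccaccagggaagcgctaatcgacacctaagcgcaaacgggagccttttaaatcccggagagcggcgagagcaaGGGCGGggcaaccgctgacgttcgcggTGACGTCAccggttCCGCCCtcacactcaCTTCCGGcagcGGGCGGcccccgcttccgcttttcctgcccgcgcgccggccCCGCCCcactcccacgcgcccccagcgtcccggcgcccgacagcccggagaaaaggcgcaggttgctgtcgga
MED20: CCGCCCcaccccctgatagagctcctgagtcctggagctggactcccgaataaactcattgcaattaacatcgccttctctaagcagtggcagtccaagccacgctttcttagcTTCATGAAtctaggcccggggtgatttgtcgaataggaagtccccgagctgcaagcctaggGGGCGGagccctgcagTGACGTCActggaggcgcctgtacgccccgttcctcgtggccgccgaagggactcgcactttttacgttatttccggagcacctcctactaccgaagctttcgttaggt
MED17: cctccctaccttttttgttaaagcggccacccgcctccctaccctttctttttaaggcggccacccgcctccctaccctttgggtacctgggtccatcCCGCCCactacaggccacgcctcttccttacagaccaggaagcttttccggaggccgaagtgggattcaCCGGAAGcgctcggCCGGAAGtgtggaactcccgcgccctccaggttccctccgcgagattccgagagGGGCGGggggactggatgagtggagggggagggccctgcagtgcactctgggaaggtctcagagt

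The motifs were the GC box GGGCGG, the CCAAT box CCAAT, the TATA box TATAAA, the ETS match CCGGAAG, the cAMP response element TGACGTCA, and the heat shock element matches GAANNTTC and TTCNNGAA. The cAMP response element was in 5 of the 33 member windows (MED14, MED20, MED24, MED30 and MED31), 15.2% beside 2.26% of the 19540 windows of coding genes. The ETS match was in 6 (MED6, MED14, MED15, MED17, MED18 and MED19), 18.2% beside 11%, and the TATA box in 6, 18.2% beside 10.9%. GC boxes were in 20 members (60.6% beside 50.6%) and CCAAT boxes in 11, MED25 among them (33.3% beside 35.4%). TTCNNGAA was in 3 (MED16, MED19 and MED20), 9.09% beside 6.80%, and GAANNTTC in MED19 alone, 3.03% beside 6.34%. Of the members with the cAMP response element, MED14, MED20 and MED30 were called higher with heat stress+NMN against control. These calls stand beside 6 of all 16 tested members and 25.6% of all tested genes called higher. MED31 was called lower in the fit with the lower minimum, and MED24, a tail subunit, was not called. MED13 and MED23, also called higher, had neither this element nor the ETS match, and a link between matches and calls was not tested. A match of letters is a description and not a bound site.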

How the data were processed

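RNA was sequenced from 6 samples of porcine oocytes, 2 per group, assigned from their labels, on an Illumina instrument that the methods and the series design name differently. Per the methods, the authors used cutadapt for trimming and tophat2 for alignment to the pig build susScr11, and the submitters' processing notes name Cufflinks 2.2.1, Cuffnorm and Cuffdiff, in roles that are not given in the sources used here. The authors deposited FPKM for each gene and sample. Their own fold changes, P-values and q-values, and their lists of differential genes, hold their comparisons and were not used. Read counts were not used here and the absolute depth is unknown, so no counting interval is given. Relative depth was taken from the commonest ratio between samples of values under 0.1 FPKM.

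FPKM were transformed to log2(FPKM + 1), and genes with a mean of at least 1 FPKM were fitted with limma 3.58.1 in R 4.3.3 (3 groups, empirical Bayes with a trend, Benjamini-Hochberg adjustment). The fit was run on simulated independent normal values, with changes larger than those of the members in the main fit and placed only in higher genes. It therefore gives no measure of how reliable the members' calls are. Members, modules and lists were chosen with earlier results of these data known. Any member could be named, as could the 2 genes with the smallest P in each machinery list and comparison, of which the text gives some, and the 3 members nearest to MED25. The sources do not say whether same-numbered samples belong together, though the paper names a paired-samples t-test for its data, and the main fit had no block. Deviations of same-numbered samples correlated at -0.0320, 0.00805 and -0.0139, which cannot show whether they shared a collection. Annotation and promoter windows were read from RefSeq Sscrofa11.1, whose accessions and positions match the loci in the deposited table. The alternatives changed the pseudocount (0.1 FPKM), the minimum mean (0.1 FPKM, 5 FPKM or none) or the scaling, with quantile normalization, the same median or the same sum outside mitochondrial genes (also without LOC100513953). Others added a replicate block, kept only the compared groups, dropped the trend, or left out each sample. Tables and figures were made with Python 3.11.15, pandas 2.3.3, numpy 2.4.6 and matplotlib 3.10.9.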

Additional observations from a re-analysis of the deposited data

How the results depend on the processing

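The count of called members depended on the processing. With heat stress against control it was 3 as reported, 5 with a minimum mean of 0.1 FPKM or none, 0 with a minimum of 5 FPKM (6 members tested, MED25 not among them), 1 with scaling to the same sum outside mitochondrial genes, with or without LOC100513953 (MED11, lower), 1 with only the compared groups, and 0 to 2 without 1 sample. It was 0 without control replicate 2, and 1 (MED14) without control replicate 1 and 1 (MED11) without either heat stress+NMN replicate. For heat stress+NMN against heat stress it was 5 as reported, 3 with a pseudocount of 0.1 FPKM or quantile normalization (all higher, beside 4 higher and 1 lower as reported), 0 with a minimum of 5 FPKM or the same sum outside mitochondrial genes, 1 with that sum without LOC100513953 (MED15, higher), and 0 to 5 without 1 sample, where heat stress replicates 1 and 2 gave 1 and 3 and heat stress+NMN replicates 1 and 2 gave 2 and 0. With heat stress+NMN against control it was 7 as reported, 2 with a minimum of 5 FPKM (MED17 and MED20) or the same sum outside mitochondrial genes (MED13 higher and MED11 lower, beside 6 and 1 as reported), and 4 to 7 without 1 sample, 4 without control replicate 2 or heat stress+NMN replicate 1. The scaling without LOC100513953 was chosen after seeing the data. The count over all tested genes changed as well. As reported it was 1074, 641 and 1948 of 4713 in the 3 comparisons. The same sum outside mitochondrial genes gave 579, 283 and 803 of 4833, and 819, 520 and 1753 of 4716 without LOC100513953. With heat stress against control, minimums of 0.1 FPKM, none and 5 FPKM gave 1865 of 11651, 2388 of 20552 and 468 of 1672. With 0.1 FPKM and none, 31 and 33 members were tested. The same-sum scaling moved the median of all genes with heat stress against control to -0.22 and that of the members to -0.20, from 0.08, and with heat stress+NMN against heat stress to 0.35 and 0.41. The causes of these changes were not tested.

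MED25 with heat stress against control kept its direction in all 16 alternatives that gave a value and lost its call in 11. It was at -0.40 with quantile normalization and with the same median (unadjusted P 0.0506 and 0.0513 from limma), -0.62 and -0.43 with the same sum outside mitochondrial genes with and without LOC100513953, -0.41 with only the compared groups, and -0.58 to -0.25 without 1 sample. With heat stress+NMN against heat stress it lost its call in 5, at 0.69 and 0.50 with these sums, and lay at 0.30 to 0.63 without 1 sample. With heat stress+NMN against control its value was -0.04 without control replicate 2, the opposite sign of the 0.05 reported, and lay at -0.04 to 0.15 without 1 sample. MED11 and MED13 kept their calls with heat stress+NMN against control under each of the 16 alternatives that tested them. At an adjusted P under 0.05, MED11 was called in 10 of these, MED13 and MED14 in 7 and MED17 in 2 of 17, with adjusted P from limma of up to 0.114, 0.266, 0.351 and 0.686. With a minimum mean of 0.1 FPKM they were at 0.0541, 0.0702, 0.0555 and 0.0827.

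Same-numbered samples showed no shared deviation over the tested genes, which cannot tell whether they were paired. With the replicate block the counts were 1, 3 and 6 in the 3 comparisons, beside 937, 527 and 1815 of 4713 genes. MED25 was at -0.41, 0.46 and 0.05 with the block, with unadjusted P of 0.0656 and 0.0458 in the first and second. The adjusted P of MED11, MED13, MED14 and MED17 with heat stress+NMN against control were 0.0497, 0.0587, 0.0540 and 0.0890 with the block. The unknown depth limits what can be said of the 17 members under 1 FPKM.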
